A study of Mus musculus with 2 samples.

Results

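Dbp and 8 other genes that the circadian clock drives or that pass its rhythm on were followed in liver and adipose tissue of mice on a high-fat or a normal diet. The genes were Dbp, Tef, Hlf, Nfil3, Bhlhe40, Bhlhe41, Ciart, Wee1 and Usp2. They were found by symbol, through the transcript accession of each probe, and all 9 were on the array among 20886 genes so matched. The 9 genes had 11 probes, with 2 each for Dbp and Bhlhe41 and 1 for each of the other 7. They were selected on the diet ratios of these same arrays, above all that of Dbp in liver, so their ratios are given as a description and carry no test.

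All mice were wild-type C57BL/6J males kept under a 12-h light cycle and fed either diet for 4 weeks. The groups were a liver pool from mice on the high-fat diet, a liver pool from mice on the normal diet, an adipose pool from mice on the high-fat diet and an adipose pool from mice on the normal diet. Per the labels, RNA from 10 livers and from 10 adipose tissues was combined by diet. Each tissue was measured on 1 two-colour array, with the high-fat pool in red (Cy5) and the normal-diet pool in green (Cy3). The hour of tissue collection, the fat depot, the make-up of the diets and the age of the mice are not given in the sources used here. For clock-driven genes the hour matters, since their transcripts change over the day. A difference between the pools in diet and one in phase or hour of sampling cannot be told apart.

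The circadian clock is a feedback loop in which the activators CLOCK and BMAL1 (encoded by Arntl) bind E-box sequences and switch on their own repressors, the PER and CRY proteins. Output genes carry this rhythm to the rest of the cell. Dbp, Tef and Hlf encode the PAR bZIP activators, which bind D-box sequences. Nfil3 encodes E4BP4, a repressor that competes for the same sites, and it is itself controlled by ROR and REV-ERB receptors through ROR elements. Bhlhe40 and Bhlhe41 encode the E-box repressors DEC1 and DEC2, and Ciart encodes CHRONO, a repressor of CLOCK and BMAL1. Wee1 is the kinase that holds back entry into mitosis, and Usp2 is a deubiquitinase. In liver the PAR bZIP activators are known for controlling genes of drug and bile acid metabolism.

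The upstream sequences below include that of Dbp, the gene with the highest liver ratio under the reported processing. The others are those of the 3 genes measured in liver whose windows held an element of the clock loop. The windows are the 250 bases before a gene's start in the RefSeq promoter table (build GRCm38.p6), which held 8 windows for 7 of the 9 genes. Bhlhe40 and Wee1 had no entry. Capitals mark the E-box CACGTG or the ROR element core TAGGTCA on either strand.
Dbp, chr7:45704997-45705246, plus strand: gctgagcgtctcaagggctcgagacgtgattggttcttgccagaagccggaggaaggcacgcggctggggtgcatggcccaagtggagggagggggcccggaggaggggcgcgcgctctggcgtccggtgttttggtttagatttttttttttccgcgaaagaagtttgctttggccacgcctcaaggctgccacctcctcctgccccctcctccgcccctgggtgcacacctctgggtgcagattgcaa
Tef, first start, chr15:81802423-81802672, plus strand: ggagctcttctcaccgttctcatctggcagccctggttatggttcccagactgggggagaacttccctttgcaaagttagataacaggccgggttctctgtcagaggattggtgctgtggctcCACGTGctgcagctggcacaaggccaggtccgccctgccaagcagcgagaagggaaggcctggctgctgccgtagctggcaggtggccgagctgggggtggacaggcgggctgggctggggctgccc
Tef, second start, chr15:81811164-81811413, plus strand: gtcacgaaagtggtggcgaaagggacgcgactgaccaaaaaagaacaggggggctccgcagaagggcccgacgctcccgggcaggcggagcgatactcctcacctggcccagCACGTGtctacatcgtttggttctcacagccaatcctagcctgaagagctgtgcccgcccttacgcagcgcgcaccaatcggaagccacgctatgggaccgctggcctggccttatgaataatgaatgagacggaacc
Ciart, chr3:95882229-95882478, minus strand: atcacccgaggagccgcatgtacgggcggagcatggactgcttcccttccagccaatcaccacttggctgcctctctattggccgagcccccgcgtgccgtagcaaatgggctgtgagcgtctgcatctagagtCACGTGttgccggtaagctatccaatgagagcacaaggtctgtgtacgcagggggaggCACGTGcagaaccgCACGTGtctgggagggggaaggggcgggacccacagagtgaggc
Nfil3, chr13:52981040-52981289, minus strand: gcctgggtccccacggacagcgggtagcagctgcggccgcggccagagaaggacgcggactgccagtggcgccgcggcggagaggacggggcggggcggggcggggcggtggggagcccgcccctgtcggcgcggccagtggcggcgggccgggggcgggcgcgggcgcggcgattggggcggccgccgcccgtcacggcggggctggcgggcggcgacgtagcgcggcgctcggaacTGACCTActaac

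Ciart held 3 E-boxes, beginning 116, 58 and 44 bases before its start. Each of the 2 Tef windows held 1, at 127 and at 138 bases, and the Bhlhe41 window held 1 at 153 bases. The Nfil3 window held a ROR element core on the reverse strand, 12 bases before the start. Dbp, Hlf and Usp2 held neither element in these windows, and no window of the 7 genes held a D-box, searched as TTATGTAA or TTACGTAA on both strands. E-boxes lay in 6.02% of all 32851 such windows, ROR cores in 2.23% and D-boxes in 0.931%. The search describes these letters in these windows only.

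The arrays had 39429 probes and no saturated spot. The median spot signal was 127 in the high-fat channel and 93 in the normal-diet channel of the liver array, against 274 and 97 on the adipose array. In the normal-diet channels each of 15 hepatocyte markers was brighter in liver and each of 10 adipocyte markers in adipose tissue. Markers of other tissues differed between the pools. Of 11 small intestine markers in the adipose pools, 11 were at least 2-fold higher in the high-fat pool, with a summed level of 338176 against 6957 in the normal-diet pool. Of 15 hepatocyte markers there, 14 were at least 2-fold lower in the high-fat pool, 20245 against 262376 in sum, and none was below background. In the liver pools 8 of 10 measured skeletal muscle markers were at least 2-fold lower in the high-fat pool, with a median of -1.45. Their part in the ratios of the clock output genes was not tested.

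In liver, 7 of the 8 measured genes had a ratio above 0, and Nfil3 alone lay below it. Dbp, Wee1 and Usp2 were at least 2-fold higher in the high-fat pool, and none was at least 2-fold lower. Ratios are log2 of the high-fat over the normal-diet pool, and a gene was called at 2-fold or more, since 1 array a tissue allows no test. Of the 13642 genes measured in liver, 0.491% were at least 2-fold higher, 0.579% lower and 1.07% either way. As the choice of genes used these ratios, nothing is read from their count. The median over the 8 genes was 0.81, against 0.01 over all measured genes. The error given with each ratio is the one that the scanner software made for its own log ratio of the spot. It was not computed for the ratio normalized here. For a gene with 2 probes their errors were combined as for independent readings, which gives a smaller error. The error covers the reading of this array and not the animals.

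**Figure D1:**
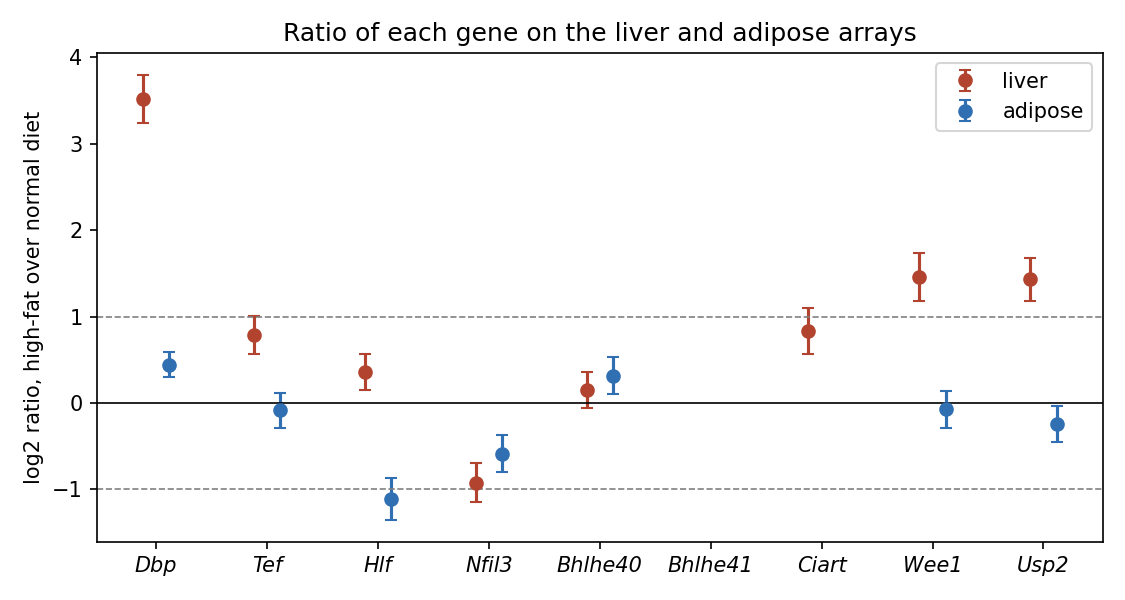
Log2 ratio of the high-fat over the normal-diet pool for each gene (y axis) in liver (red) and adipose tissue (blue), 1 array each. Bars are the error that the scanner software gave for its own ratio, combined over the probes of a gene with 2. Dashed lines mark 2-fold, and a missing point means that no ratio was measured. Dbp in liver lies at 3.52, above the rest, and Hlf in adipose tissue is the only point past the lower line.

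Among the PAR bZIP activators, Dbp encodes the protein first described as binding the D site of the albumin promoter. Under the reported processing it had the highest ratio of all measured liver genes. In the scanner software's own log ratio Cdh16 lay higher, at 4.25 against 3.58 for Dbp. The first Dbp probe, A_55_P2032079, read 21785 in the high-fat liver pool and 995.5 in the normal-diet liver pool, over local backgrounds of 49 and 29. Its second probe, A_55_P2032081, read 25868 in the high-fat and 1196 in the normal-diet liver pool. The probes gave ratios of 3.53 and 3.50, so that both of them, made for the same transcript, put the high-fat pool far above the normal-diet pool. The gene's ratio was 3.52 with a scanner error of 0.28, which is 11.4-fold. Of the 882 genes within 0.5 log2 units of its mean brightness, 95% lay between -0.58 and 0.64.

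Tef, which encodes the thyrotroph embryonic factor, read 35313 in the high-fat and 9925 in the normal-diet liver pool, over backgrounds of 47 and 28. The ratio was 0.79 (error 0.22), or 1.73-fold, and 139 of the measured genes had a higher one. It was under 2-fold and above the range of 95% of the genes of like brightness, -0.64 to 0.59. With median centring it passed 2-fold, at 1.42, or 1.1 relative to the median of all genes. Hlf, the hepatic leukemia factor, read 3994.5 in the high-fat and 1702 in the normal-diet liver pool, for a ratio of 0.35 (error 0.21). That is 1.28-fold, within the range of genes of like brightness (-0.64 to 0.61) and less than 2 times its error. The 3 activators thus lay above 0 by very unequal amounts.

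Nfil3, the repressor of the same D-box sites, was the one gene of the set that was lower. It read 4696 in the high-fat and 4742 in the normal-diet liver pool, over backgrounds of 54 and 24. These are raw readings, on an array whose median spot read higher in the high-fat channel (127 against 93), and normalization changes their relation. The log2 level was 11.70 in the high-fat and 12.63 in the normal-diet pool, a ratio of -0.92 (error 0.22). The high-fat pool held 52.8% of the normal-diet level, just short of 2-fold, and 96 measured genes lay lower. The ratio was below the range of genes of like brightness (-0.59 to 0.64). With median centring it was -0.43, or -0.74 relative to the median of all genes.

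Of the E-box repressors, Ciart had the largest ratio. Its probe read 234 in the high-fat and 83 in the normal-diet liver pool, over backgrounds of 49 and 26, so it is a dim spot in both channels. The ratio was 0.83 (error 0.27), or 1.78-fold, outside the range of genes of like brightness (-0.47 to 0.44). This value depends on the background correction, with 1.62 in the software's own log ratio, 1.17 with a smaller normexp offset and 0.07 with all local backgrounds as deposited. Bhlhe40 read 1807 in the high-fat and 908 in the normal-diet liver pool, a ratio of 0.15 (error 0.20), which is within its error of 0. Bhlhe41 was not well above background in either liver pool on either probe. They read 68 and 76 in the high-fat pool and 55 and 58 in the normal-diet pool, and no ratio is given.

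Wee1 and Usp2 stood next to each other in liver. The Wee1 probe read 662 in the high-fat and 138 in the normal-diet liver pool, over backgrounds of 54.5 and 28.5. Its ratio was 1.46 (error 0.27), or 2.75-fold, with 19 measured genes above it. The Usp2 probe read 3627 in the high-fat and 738 in the normal-diet liver pool, over backgrounds of 48 and 28. Its ratio was 1.43 (error 0.25), or 2.70-fold, with 20 genes above it. The 2 ratios differ by less than either error. With all local backgrounds as deposited they were 0.24 for Wee1 and 0.89 for Usp2, so both calls ended, while Dbp stayed past 2-fold at 2.96. None of the 22 spots of the 9 genes carried a background outlier mark itself.

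**Figure D2:**
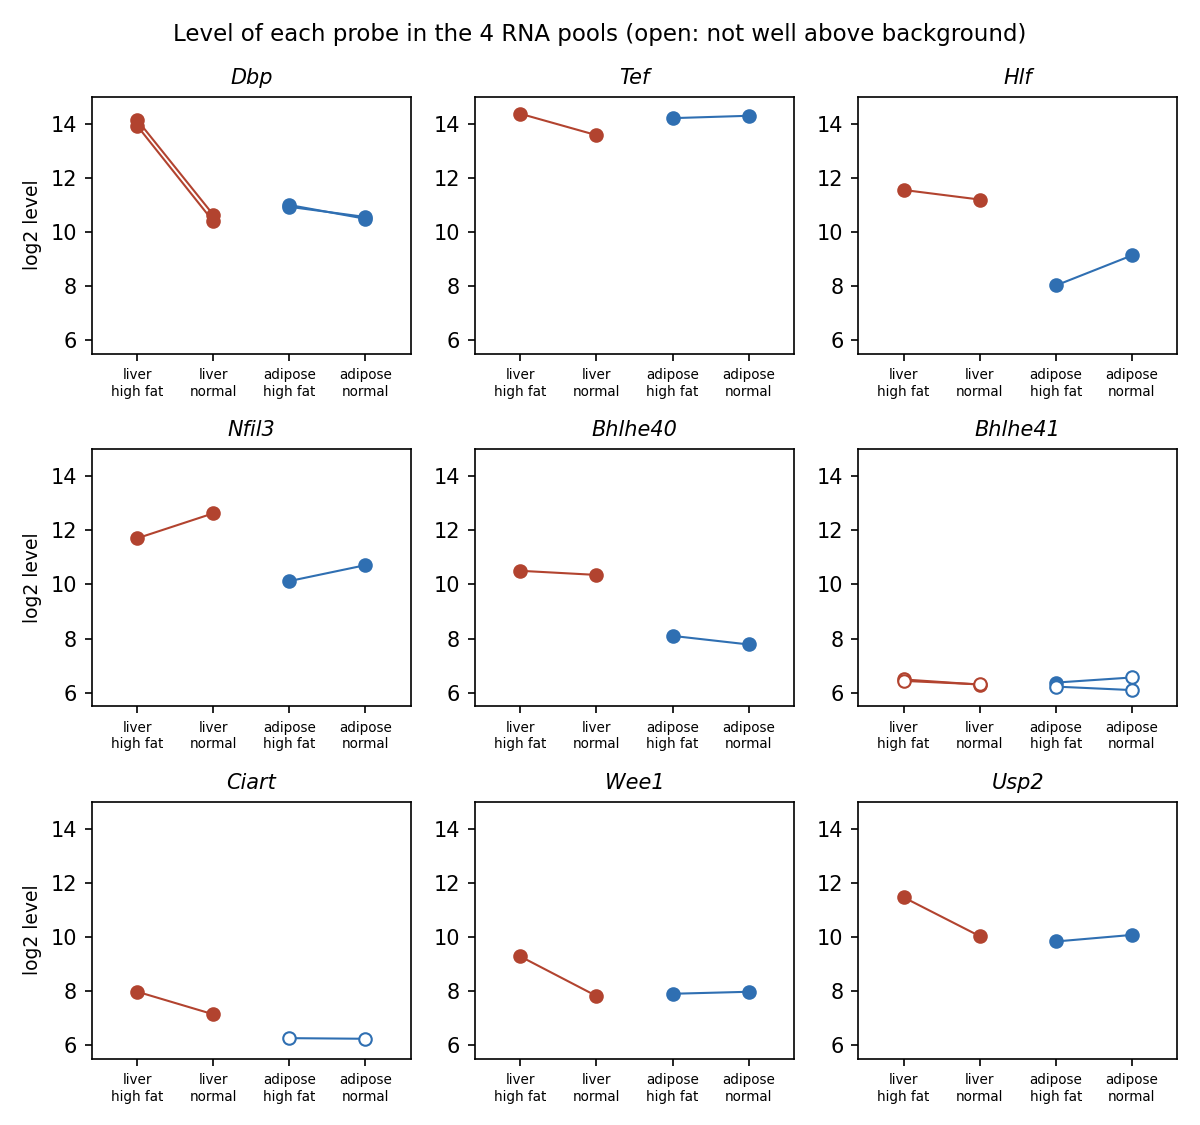
Log2 level of each probe (y axis) in the high-fat and normal-diet pools of liver (red) and of adipose tissue (blue), with a line joining the channels of 1 array. Open circles are not well above background. Dbp stands near 14 in the high-fat liver pool and between 10 and 11 in the other pools, and all Bhlhe41 points are open but 1.

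In adipose tissue the ratios of 3 genes, Hlf, Nfil3 and Dbp, lay more than 2 scanner errors from 0. For Dbp this rests on the smaller error of its 2 probes combined, 0.15. Its second probe alone, at 0.38 with an error of 0.21, lay within 2 errors. Of 7 measured genes, 2 had a ratio above 0 and 5 below it, and the median was -0.09, against -0.01 over all measured genes. No gene was at least 2-fold higher and Hlf alone was at least 2-fold lower, at -1.11. The shares over all 14315 measured genes were 4.23% higher, 5.13% lower and 9.36% either way, and 1 of 7 is not read against them. All 7 ratios lay within the range of 95% of the genes of like brightness on that array, which is wider than in liver. The sign of the small ratios depends on the normalization. With median centring, where the median of all genes was 0.69 in place of -0.01, Tef (1.06), Nfil3 (0.35), Wee1 (0.43) and Usp2 (0.66) lay above 0, and relative to that median they were at 0.36, -0.34, -0.26 and -0.03.

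Dbp read 4809 and 4593 on its 2 probes in the high-fat adipose pool and 655 and 681 in the normal-diet adipose pool. After normalization the ratios were 0.51 and 0.38, and 0.44 for the gene (error 0.15), or 1.36-fold. The high-fat pool was the higher one on both probes, by far less than in liver. Tef read 38115.5 in the high-fat and 6893 in the normal-diet adipose pool, with a ratio of -0.09 (error 0.20). Nfil3 read 2663 in the high-fat and 784 in the normal-diet adipose pool, with a ratio of -0.59 (error 0.21), which is 66.5% of the normal-diet level. It was below 0 in both tissues under loess.

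Hlf read 621 in the high-fat and 310 in the normal-diet adipose pool, over backgrounds of 50.5 and 26. Its log2 level was 8.02 in the high-fat and 9.13 in the normal-diet pool, a ratio of -1.11 (error 0.24), or 46.3% of the normal-diet level. It lay below 0 under all 8 other ways of processing, at -0.41 with median centring, which is -1.10 relative to the median of all genes there. The looser filters and the brightest-probe choice could not change it, as Hlf has 1 probe, above background in both channels. Hepatocyte markers were lower in the same pool (14 of 15 at least 2-fold, median -4.24), as were exocrine pancreas markers (9 of 9, summed level 2189 against 12292 in the normal-diet pool), skeletal muscle markers (5 of 8 measured, summed level 5908 against 19944) and those of the male reproductive tract (5 of 5 measured, summed level 8246 against 84771). Small intestine markers were higher in that pool (11 of 11 at least 2-fold), and adipocyte markers had a median of 0.16. The part of all these markers in the Hlf ratio was not tested. In pooled tissue, fewer cells of a type and less RNA per cell cannot be told apart.

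Bhlhe40 read 631 in the high-fat and 134 in the normal-diet adipose pool, with a ratio of 0.32 (error 0.21). Wee1 read 546.5 in the high-fat and 148.5 in the normal-diet adipose pool, for a ratio of -0.07 (error 0.21). Usp2 read 2196.5 in the high-fat and 520.5 in the normal-diet adipose pool, for a ratio of -0.24 (error 0.21). The ratios of these 3 genes lay within 2 times their errors of 0, as did that of Tef. Ciart read 82 in the high-fat and 61 in the normal-diet adipose pool, neither well above background. One Bhlhe41 probe was above background in the high-fat adipose pool only, at 106 against 74 in the normal-diet pool, and its normalized level was no higher there, so no bound is given.

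Set against each other, the tissues differed most for Dbp. Its ratio in liver exceeded that in adipose tissue by 3.07, with a combined scanner error of 0.31. The excess was 1.67 for Usp2 (error 0.32), 1.53 for Wee1 (0.35), 1.46 for Hlf (0.32) and 0.88 for Tef (0.30). For Nfil3 (-0.33, error 0.31) and Bhlhe40 (-0.17, error 0.30) the tissues lay within 2 errors of each other, though Nfil3 was at -0.78 with median centring. With all local backgrounds as deposited the excess was 0.31 for Wee1, within its error, and with median centring it was 0.36 for Tef. These differences were not tested, as neither tissue has a second array, and slide and tissue cannot be told apart.

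**Figure D3:**
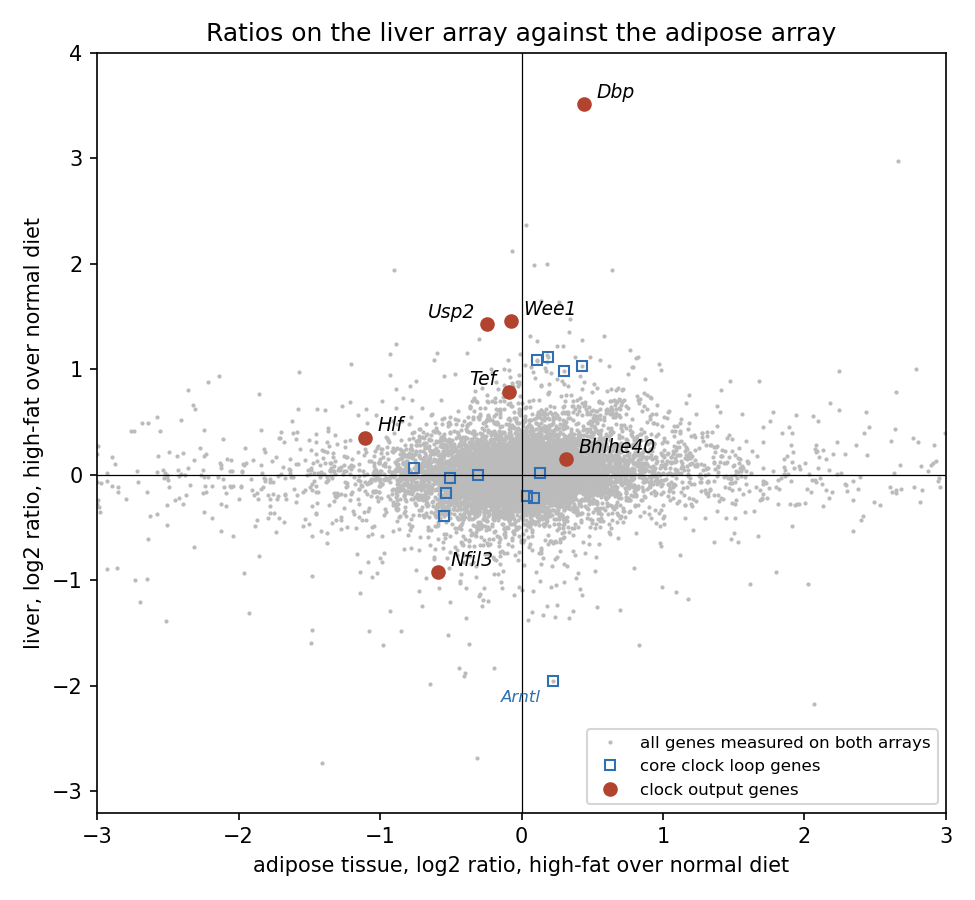
Log2 ratio, high-fat over normal diet, in adipose tissue (x axis) and liver (y axis) for the 12689 genes measured on both arrays, of which 134 lie outside the axes. Clock output genes are red circles and core clock loop genes blue squares. Dbp stands alone at the top, Usp2 and Wee1 lie near the vertical axis, Nfil3 is below 0 on both axes, and Arntl is the lowest square.

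The level of a probe can be compared between tissues only if both arrays are taken to share 1 distribution of intensities, which the scaling imposes. The levels here come from the reported processing only. On that scale Dbp had nearly the same level in both tissues on the normal diet, at 10.51 in liver and 10.52 in adipose tissue. On the high-fat diet it was at 14.03 in liver and 10.96 in adipose tissue. The order for Dbp on that scale was therefore the high-fat liver pool, then the high-fat adipose pool. The normal-diet pools of adipose tissue and liver came last and nearly level. Usp2 showed a like order at the top, with 11.46 in the high-fat liver pool, 10.07 in the normal-diet adipose pool, 10.03 in the normal-diet liver pool and 9.83 in the high-fat adipose pool. The last 3 lie about as close together as the scanner error of a ratio. Wee1 was at 9.28 in the high-fat liver pool and between 7.82 and 7.98 in the other 3 pools. For these 3 genes the high-fat liver pool was the highest. The liver ratio of Wee1 was 0.24, within its error of 0, and that of Usp2 was 0.89 with all local backgrounds as deposited.

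Hlf, Nfil3 and Bhlhe40 were ordered by tissue rather than diet. Hlf was at 11.55 (high fat) and 11.20 (normal diet) in liver, against 8.02 and 9.13 in adipose tissue. Nfil3 was at 11.70 and 12.63 in liver, against 10.12 and 10.71 in adipose tissue. Bhlhe40 was at 10.50 and 10.35 in liver, against 8.10 and 7.78 in adipose tissue. In these 3 genes both liver pools were brighter than both adipose pools. Tef differed from them, with 14.36 and 13.57 in liver and 14.20 and 14.29 in adipose tissue. Its normal-diet liver pool was the lowest, and its high-fat liver pool the highest, close to both adipose pools.

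The 5 genes nearest to Dbp, by the straight-line distance between their pairs of ratios over the 2 tissues, were Cdh16, Cish, Akr1c18, Fam171b and Tenm4. Cdh16, the nearest of 12193 named genes compared, was at 2.37 in liver and 0.03 in adipose tissue, a distance of 1.22. Cish followed at 2.13 and -0.07 (distance 1.48). Each of the 5 rests on 1 probe measured in liver. Once probes above background in only 1 channel were also kept, the liver ratio of Tenm4 fell from 1.95 to 1.03. Cdh16, Akr1c18 and Tenm4 were dim in the normal-diet liver pool, at log2 levels of 6.95, 7.07 and 6.90 where the lowest level well above background was 6.19. With all local backgrounds as deposited the liver ratio was 0.30 for Cdh16 and 0.84 for Cish, and 0.20 to 0.31 for the other 3, against 2.96 for Dbp. The software's own log ratio moved them the other way, to 4.25 for Cdh16, 3.48 for Tenm4 and 3.33 for Akr1c18. Fam171b was then at 2.97 and Cish at 2.33, against 3.58 for Dbp. With 2 arrays this likeness is a description of 2 numbers per gene.

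The core clock loop gives the setting of these values. Of its 18 genes, 14 were measured in liver, 3 at least 2-fold higher (Nr1d1 1.11, Cry2 1.09, Nr1d2 1.03) and 1 lower (Arntl -1.95), with a median of 0.01, the same as over all genes. Nr1d1 and Nr1d2 encode the REV-ERB repressors, Cry2 a repressor of CLOCK and BMAL1, and Arntl the activator BMAL1. Per2, another repressor, was at 0.99, while Per1 was at 0.07 and Cry1 at -0.22. With all local backgrounds as deposited none of the 14 passed 2-fold. In adipose tissue none of 15 measured genes passed 2-fold, with Per1 at -0.76 and Clock at -0.55 farthest from 0. With median centring 3 of them did, all higher, where the list's median was 0.56, or -0.14 relative to all genes.

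Genes known to depend on the PAR bZIP factors in mouse liver did not share one direction. Of 10 measured in liver, 2 were at least 2-fold higher, Alas1 (1.65), the first enzyme of heme synthesis, and Cyp7a1 (1.40), which starts bile acid synthesis. Cyp2b10 (-1.83), a drug-metabolizing enzyme, was lower. Alb was at 0.71, Por, the reductase that serves the cytochromes P450, at 0.50, and Nr1i3, the receptor CAR, at 0.33. The list's median was 0.30, against 0.01 over all genes. The 15 hepatocyte markers, which also hold Alb, had a median of 0.40 in the same pools, with 11 above 0, and their part in the list's median was not tested. With median centring 5 were at least 2-fold higher and 1 lower. In adipose tissue 4 of 9 were lower, namely Alb (-3.63), Cyp2a4 (-3.0), Cyp2c50 (-2.99) and Gstt1 (-1.02), with Sult1d1 (1.09) higher. The median was -0.95, and 0.11 with median centring, or -0.58 relative to all genes, where Gstt1 was at 0.11. Hepatocyte markers were lower and intestinal markers higher in that pool, as given above.

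Other clock-controlled genes were divided too. Of 9 measured in liver, Noct (1.03), which encodes the rhythmic protein nocturnin, was at least 2-fold higher and Tsc22d3 (-1.29), a gene that glucocorticoids also induce, lower, with a median of -0.12. Noct was at 0.80 with all local backgrounds as deposited, and none was then higher. With median centring 3 were higher and none lower, at a median of 0.34. In adipose tissue none of the 9 passed 2-fold under loess, with Tsc22d3 at -0.93 and Noct at 0.62, and 2 were higher with median centring. Noct was above 0 and Tsc22d3 below it in both tissues under loess. The C/EBP factors, bZIP proteins whose sites resemble the D-box, were all within 2-fold in liver, with Cebpd at -0.78 and Cebpb at -0.34. In adipose tissue 1 of 5 was lower, Cebpd at -1.0, which is at the threshold, with a list median of -0.82 that becomes 0.19 with median centring, or -0.50 relative to all genes. The lower call ended with the software's ratio and with an offset of 10, and with median centring 1 gene was higher and none lower.

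**Figure D4:**
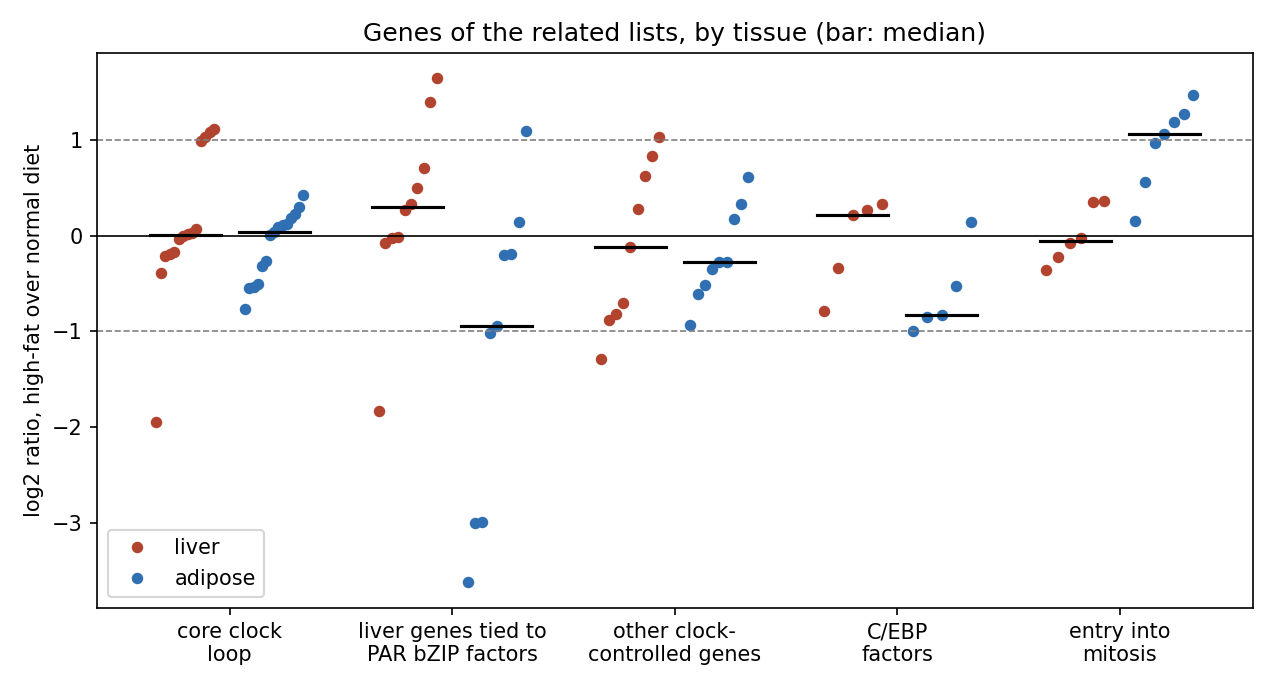
Log2 ratio, high-fat over normal diet (y axis), of the measured genes of each related list in liver (red) and adipose tissue (blue), sorted by value within a list. Black bars are list medians and dashed lines mark 2-fold. The core clock loop in liver has its lowest gene at -1.95 and its highest at 1.11, and the mitosis genes in adipose tissue lie above 0.

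Wee1 acts on CDK1, the kinase that starts mitosis, so its partners were listed beside it. In liver none of 6 measured mitosis genes passed 2-fold, with Plk1 at 0.36 and Cdk1 at -0.36, and 4 of the 10 genes were not above background in the high-fat pool, nor 4 in the normal-diet pool. In adipose tissue 4 of 7 were at least 2-fold higher, Ccnb2 (1.47), Plk1 (1.27), Cdc25a (1.19) and Ccnb1 (1.07), with Cdk1 at 0.97 and a median of 1.07. With median centring all 7 passed 2-fold, at a median of 1.57, or 0.88 relative to all genes. With no filter on dim probes 3 of 10 did, at a median of 0.41. Ccnb1 was then at 0.45, so its call ended. Wee1 itself was at 1.46 in liver and -0.07 in adipose tissue. Under the reported processing Wee1 was thus called in liver only, and the 4 called partners in adipose tissue only. Of these, Ccnb1 had no ratio in liver. Pkmyt1 (0.15) and Cdc25b (0.57) stayed below 2-fold in adipose tissue. Leaving all local backgrounds as deposited put Wee1 at 0.24 in liver. Its excess over adipose tissue was then 0.31, within its error of 0.35. The intestinal markers were higher in the same adipose pool (11 of 11), and their part in the mitosis genes was not tested.

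**Figure D5:**
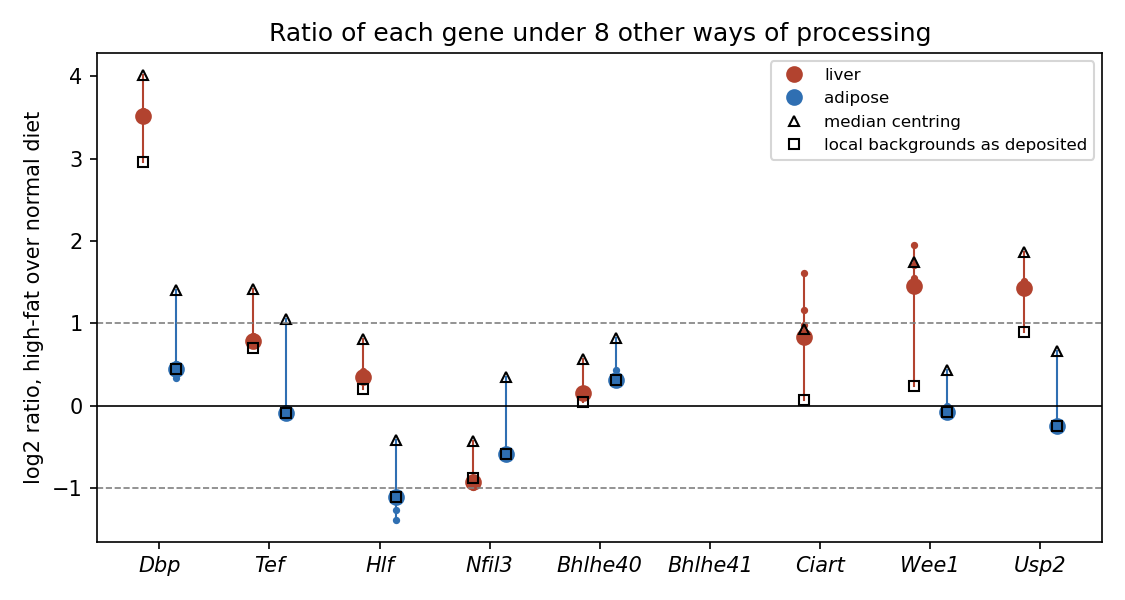
Log2 ratio, high-fat over normal diet (y axis), of each gene under the reported processing (large circles) and 8 others (dots, triangles and squares), in liver (red) and adipose tissue (blue). Dbp in liver spans 2.96 to 4.01, Wee1 0.24 to 1.95 and Ciart 0.07 to 1.62. Median centring raises every ratio in both tissues.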

How the data were processed

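Per the file headers, Feature Extraction 11.5.1.1 (Agilent; protocol GE2_1105_Oct12, array annotated on mm9) made the scanner tables, whereas version 8.5.1.1 stands in the submitters' processing notes. The deposited intensity values are median pixel intensities of each spot and its local background, not normalized. The deposited log10 ratio is red over green after the software's background subtraction and dye normalization.

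Here, local backgrounds marked as outliers (1602 red and 665 green in liver, 1480 and 406 in adipose tissue) were set to the array's median. Background was corrected with limma 3.58.1 (R 4.3.3, normexp, offset 50), each array was normalized by loess, and the arrays' mean intensities were given 1 distribution (Aquantile) for levels. The loess step was tried on simulated data built from the liver array, with equal numbers of higher and lower probes. That trial does not cover the adipose array. Spots marked as outliers were left out, and a gene was measured where a probe was well above background in both channels. Spots, then probes, were averaged on the log2 scale. A summed level adds the linear levels of a list. Of 39429 probes, 27508 matched 1 gene through RefSeq accessions. The call was 2-fold.

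Only 1 array per tissue exists here, with no dye swap, so the number of arrays limits the precision. Genes and lists were chosen with earlier results of these data known. Named were all 9 genes, the list genes past 2-fold (the 2 farthest from 0 where none was) and the 5 nearest to Dbp. Other list genes were named after their values were seen. The alternatives were the software's ratio, no background subtraction, an offset of 10, local backgrounds as deposited, median centring, looser or no filters on dim probes, the brightest probe, and 2 times the scanner error.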

Additional observations from a re-analysis of the deposited data

Results flagged for a closer look

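In 4 genes the ratio lay on opposite sides of 0 in the tissues. The ratio in liver minus that in adipose tissue was 1.67 for Usp2, 1.53 for Wee1, 1.46 for Hlf and 0.88 for Tef. The differences were not tested, since each tissue had 1 array. The adipose ratios of Usp2 (-0.24), Wee1 (-0.07) and Tef (-0.09) and the liver ratio of Hlf (0.35) were each within 2 times the scanner error of 0, so the opposite sign itself rests on small values. With all local backgrounds as deposited the difference was 0.31 for Wee1, within its error of 0.35, and with median centring it was 0.36 for Tef. With median centring Usp2, Wee1 and Tef were above 0 in both tissues, while Hlf kept opposite signs.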

How the results depend on the processing

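No paired analysis was possible because each tissue had 1 array and the result comes from no test. In liver 3 of the 9 genes were at least 2-fold apart between the diets, and the count was 3 or 4 under all alternatives but one, with local backgrounds as deposited, where it was 1 (Dbp). The count of list genes past 2-fold there was 4 in place of 9, and 14 (12 higher, 2 lower) with median centring. In adipose tissue the count of clock output genes was 1 (Hlf) except with median centring, where it was 2, both higher (Dbp 1.40 and Tef 1.06). The list genes numbered 18 (15 higher, 3 lower) in place of 10 (5 and 5). Alternatives for the list genes, the genes nearest to Dbp and the differences between tissues were chosen after seeing the data. Over all genes, median centring gave 445 higher and 28 lower in liver (94.1% higher, against 45.9%, at a median of 0.32) and 4208 and 616 in adipose tissue (87.2% higher, against 45.1%, at a median of 0.69). Against 67 higher and 79 lower liver genes, leaving local backgrounds as deposited gave 20 and 35 (36.4% higher), the software's ratio 138 and 157, 1 channel above background 116 and 79 (59.5% higher) and no filter 103 and 78 (56.9% higher). The adipose counts were 901 and 1230 with the software's ratio, against 605 and 735. Of 120 ratios recomputed for single genes, 98 moved by less than the scanner error and 22 by more, and no called ratio changed sign. The 98 include ratios that could not move. The looser filters on dim probes return the same value for all these genes, and the brightest probe does so for genes with 1 probe. The causes were not tested. Ciart and Bhlhe41 are limited by dim signal.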

Other observations

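Bhlhe41 shows how far the scanner software's own ratio can go on a dim spot. On the liver array it gave 1.66 and 2.27 on the log2 scale for the 2 Bhlhe41 probes, with errors of 0.73 and 0.95, where neither channel was well above background. The same spots had 0.19 and 0.13 after normexp and loess. The software's ratio for the dim Ciart spot in liver, 1.62, was likewise above the 0.83 reported.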
